A study of Mus musculus with 8 samples.

Results

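The genes described here handle iron and heme: Hmox1, Blvrb, Fth1, Ftl1, Trf, Tfrc, Steap3, Slc11a1, Slc40a1 and Cp. They were chosen by symbol, with earlier results of these data known, and all 10 are among the 17644 genes of the table. Expression was measured in mouse brain by CAGE (cap analysis of gene expression), which sequences a short read from the capped 5' end of each RNA and so counts molecules without regard to their length. Male C57BL/6NCrSlc mice aged 11 weeks had motor cortex aspirated to leave a small cavity, and tissue within 1.0 mm of the cavity was taken. In the no-delay group (4 libraries) the brain was removed straight after the lesion, and in the 1-week group (4 libraries) it was removed 1 week later. Every animal therefore had a cavity, no uninjured or sham group was used here, and the no-delay group stands for tissue with a fresh lesion. The series title names progranulin and grafted human neurons, and the comparison bears on how the host tissue around the cavity differed after the delay.

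Iron reaches most cells bound to the plasma protein transferrin, enters through the transferrin receptor, is reduced in endosomes, and is stored inside ferritin shells or exported through ferroportin. Macrophages and microglia also obtain iron from engulfed red cells, whose heme is opened by heme oxygenase to give iron, carbon monoxide and biliverdin. In brain, oligodendrocytes are known for high levels of transferrin mRNA and ferritin, and iron regulatory proteins bind hairpins in several of these mRNAs, restraining ferritin translation and stabilising the transferrin receptor mRNA when iron is scarce.

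Values are CPM, read counts scaled to the same total in every library, and are given in the order of libraries A, B, C and D within each group. The letters stand for a short index in the column names (A for acagtg, B for atcacg, C for cgatgt, D for tgacca), which occurs in both groups and is not known to mark shared animals. A difference was called where the limma test on log2(CPM + 1) over 14718 genes gave a Benjamini-Hochberg adjusted p under 0.05. Fold changes are 1 week over no delay on that scale, on which changes of genes with few reads come out too small. The libraries held 8278855 to 13998941 reads, so that 3 reads, the upper limit that a count of 0 allows, are 0.214 to 0.362 CPM. The column names also end in 1 fixed 3-base index in all no-delay libraries and in another in all 1-week libraries, and anything these mark cannot be told apart from the group. Nothing says that each library came from its own animal, so p-values measure the spread between these libraries, which may be technical.

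All 10 genes were called, 9 higher and 1 (Tfrc) lower, where 36.8% of all tested genes were called, 23.4% higher and 13.4% lower. In all 10 the groups did not overlap, as in 34.7% of tested genes. The median log2 fold change was 1.04 over the 10 genes and 0.06 over all tested genes. As the 10 genes were chosen with earlier results of these data known, these shares and medians are no test of the set. Slc11a1 was below 1 CPM in every no-delay library and passed the filter on low values (1 CPM in at least 4 libraries) only through its 1-week values. Its direction and lack of overlap were therefore fixed in advance. Steap3 was below 1 CPM in 2 no-delay libraries. The largest difference was in heme oxygenase and the smallest in the transferrin receptor. In bulk tissue, more cells of a type and more RNA per cell cannot be told apart. Microglia, macrophage, astrocyte and oligodendrocyte markers were higher at 1 week too, and their values are given with Hmox1, Slc40a1, Slc11a1 and Trf after the results on globin.

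**Figure D1:**
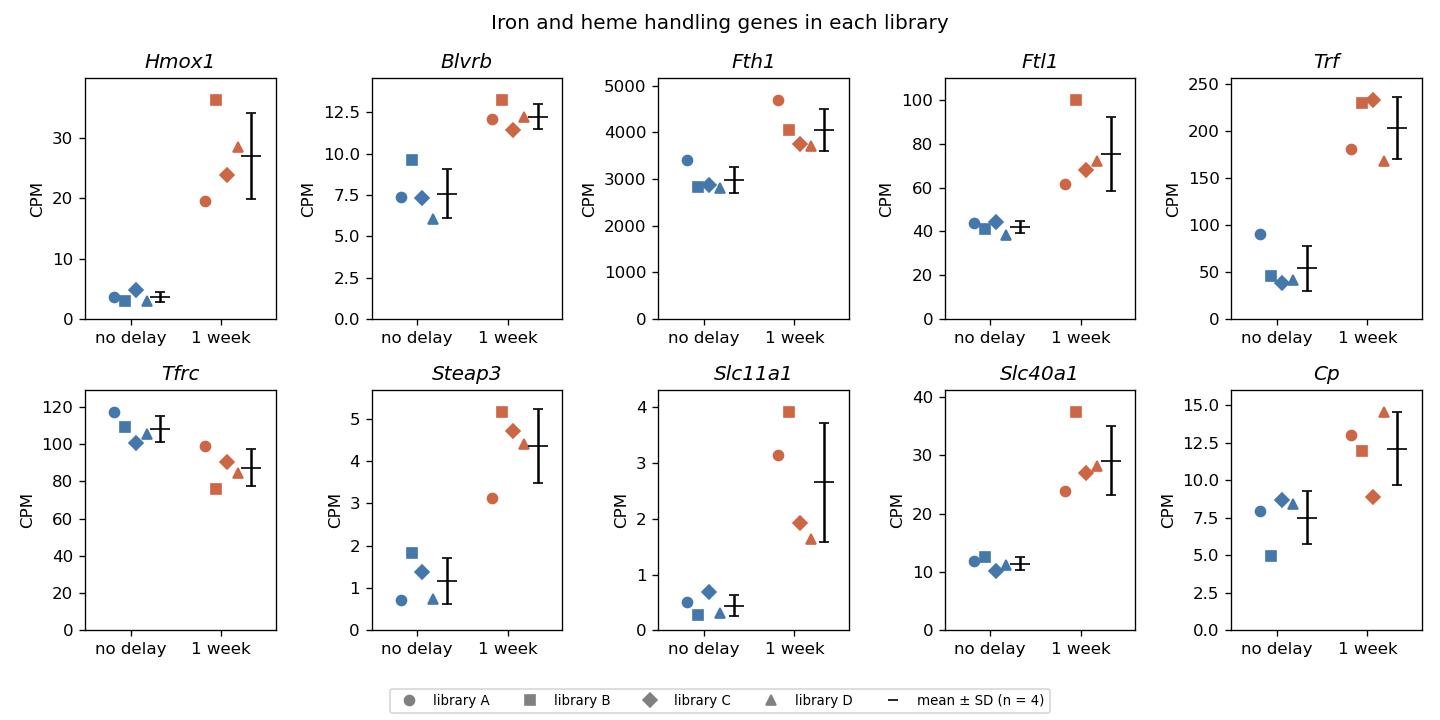
CPM of the 10 genes in each library (vertical axes, linear, from 0), with no-delay libraries in blue and 1-week libraries in orange, marker shapes for libraries A to D, and black marks for mean ± SD (n = 4). Every 1-week library lies above every no-delay library in 9 genes and below in Tfrc.

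A hairpin shared by ferritin and transferrin receptor mRNAs is shown first, as a description of their sequence. The iron-responsive element was searched in protein-coding transcripts of GENCODE M21 (GRCm38, sense strand) as a bulged C, a stem of 5 bases, the loop CAGTGN and the 5 bases that pair with the stem, with G-T pairs allowed. It was found within 250 bases of the transcript start in 3 of the 10 genes (Fth1, Ftl1 and Slc40a1) and in 0.165% of 21877 protein-coding symbols. It was found further along in Tfrc, 4 times, and at any position in 1.34% of symbols. The hairpin is known from several of these mRNAs, so finding it in them was fixed in advance. The shares are therefore no enrichment of the 10 genes. Capitals below mark the bulged C and the loop, and each line is a stretch of 27 bases. The site of Slc40a1, with its bulged C at base 96 of 3370, is not printed.
Fth1, bulged C at base 93 of 929: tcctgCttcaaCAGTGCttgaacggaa
Ftl1, bulged C at base 84 of 968: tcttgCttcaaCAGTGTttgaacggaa
Tfrc, bulged C at base 3321 of 4890: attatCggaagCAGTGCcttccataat
Tfrc, bulged C at base 3700 of 4890: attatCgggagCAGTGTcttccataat
Tfrc, bulged C at base 3765 of 4890: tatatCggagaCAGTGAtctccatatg
Tfrc, bulged C at base 3812 of 4890: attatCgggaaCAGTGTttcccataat
These matches describe letters and pairing only. Binding by iron regulatory proteins and protein levels were not measured, and a link of the hairpin to the mRNA levels was not tested.

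Both members that act in heme breakdown, Hmox1 and Blvrb, were higher at 1 week. Of 6 other genes of heme breakdown and transport tested, 2 were higher and 4 were not called, where 36.8% of all tested genes were called. Hmox1, the inducible heme oxygenase, stood at 3.69, 3.02, 4.75 and 2.92 CPM without delay and at 19.45, 36.2, 23.9 and 28.5 CPM at 1 week. The lowest 1-week library (A) was well above the highest no-delay library, and library B was highest. The means were 3.60 CPM ± 0.842 and 27.005 CPM ± 7.16 (SD, n = 4 per group), a ratio of 7.51 and log2 fold change of 2.59 ± 0.18 (SE; 95% interval 2.20 to 2.98, limma adjusted p = 5.32e-07). Among the genes tested, it ranked 72 by log2 fold change. Hmox2, the constitutive heme oxygenase, stood at 73.6 CPM ± 2.65 and 80.2 CPM ± 4.01 (SD, n = 4 per group) and was not called (log2 fold change 0.12, limma adjusted p = 0.152). Hmox1 reads were therefore 0.0398 to 0.0626 of Hmox2 reads without delay and 0.262 to 0.437 at 1 week. The exact 2-sided permutation test of that ratio gave p = 0.0286, the smallest that 4 against 4 allows, and p = 0.0715 adjusted over the 5 single values tested in this way, which fails the correction.

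Biliverdin reductases act after heme oxygenase and make bilirubin. Blvrb, the form named biliverdin reductase B, stood at 7.38, 9.60, 7.33 and 6.04 CPM without delay and at 12.1, 13.2, 11.4 and 12.2 CPM at 1 week. The no-delay library B was closest to the 1-week range. Its log2 fold change was 0.64 ± 0.13 (SE; limma adjusted p = 0.00209). Blvra, the main biliverdin reductase of adult tissue, was also higher, at 40.05 CPM ± 2.14 and 49.6 CPM ± 4.97 (SD, n = 4 per group; log2 fold change 0.30, limma adjusted p = 0.0136). This call was lost without the 1-week library C (limma adjusted p = 0.0517). The ratio of Blvrb to Blvra was 0.189 ± 0.0321 without delay and 0.248 ± 0.0281 at 1 week (SD, n = 4 per group; exact 2-sided permutation p = 0.0571, adjusted p = 0.0952), so an unequal change of the pair was not shown.

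Ferritin genes were higher by modest factors. Fth1, the heavy chain with ferroxidase activity, was by far the most abundant of the 10 genes, at 3398, 2821, 2877 and 2803 CPM without delay and 4688, 4040, 3759 and 3718 CPM at 1 week. Library A was highest in each group. The means were 2975 CPM ± 284 and 4051 CPM ± 448 (SD, n = 4 per group), a ratio of 1.36 and 0.44 ± 0.11 (SE) on the log2 scale (limma adjusted p = 0.00748). With quantile normalization the log2 fold change was 0.28 (limma adjusted p = 0.0432). Ftl1, the light chain, which helps iron to form a mineral core, stood at 43.95, 41.0, 44.2 and 38.5 CPM without delay and at 61.6, 99.9, 68.2 and 72.1 CPM at 1 week. All no-delay values lay within a narrow band, while the 1-week library B stood apart at the top. The log2 fold change was 0.81 ± 0.12 (SE; 95% interval 0.54 to 1.08, limma adjusted p = 2.77e-04).

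Light chain reads were few beside heavy chain reads. The ratio of Ftl1 to Fth1 was 0.0141 ± 0.00105 without delay and 0.0189 ± 0.00476 at 1 week (SD, n = 4 per group), with 3 of 4 1-week libraries above every no-delay library. The exact 2-sided permutation test gave p = 0.114 (adjusted p = 0.143), so a change in the balance of the chains was not shown. This level of Ftl1 carries a limit. Ftl2, a processed copy listed separately in the table and named Ftl2-ps in the reference, is identical to the Ftl1 transcript at 545 of 552 aligned bases (98.7%). Ftl2 rose as well, from 6.23 CPM ± 1.59 to 20.1 CPM ± 4.14 (SD, n = 4 per group; log2 fold change 1.55, limma adjusted p = 1.76e-05). How reads that match several places were counted is not given in the sources used here, so the levels of both rows are uncertain.

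Genes of iron storage and delivery outside the 10 were also mostly higher. Ncoa4, the receptor that carries ferritin to lysosomes, rose from 72.5 to 103.4 CPM (log2 fold change 0.51 ± 0.08 SE, limma adjusted p = 2.55e-04). Pcbp2, an iron chaperone, rose from 39.0 to 49.8 CPM (log2 fold change 0.35, limma adjusted p = 0.00663). Of the 4 storage and delivery genes tested, 3 were higher and 1 was not called, with a median log2 fold change of 0.43. The count and the median include Ftl2 (log2 fold change 1.55), whose reads may not be told apart from those of the member Ftl1. Over all tested genes 36.8% were called, 23.4% higher, and a list of 4 genes is small.

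Transferrin and its receptor moved in opposite directions. Trf, which encodes transferrin, stood at 90.05, 45.8, 38.4 and 41.5 CPM without delay and at 182, 230, 233 and 168 CPM at 1 week. The no-delay library A stood far above the other three of its group, yet below every 1-week library. The means were 53.9 CPM ± 24.3 and 203 CPM ± 33.2 (SD, n = 4 per group), a ratio of 3.77 and log2 fold change of 1.97 ± 0.22 (SE; 95% interval 1.496 to 2.44, limma adjusted p = 2.06e-05). Without the no-delay library A the log2 fold change was 2.24.

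Tfrc, the transferrin receptor, stood at 118, 109, 101 and 105 CPM without delay and at 99.2, 75.9, 90.2 and 84.3 CPM at 1 week. The groups nearly met, at 101 CPM in the lowest no-delay library and 99.2 CPM in the highest 1-week library. The log2 fold change was -0.31 ± 0.08 (SE; 95% interval -0.49 to -0.13, limma adjusted p = 0.0117). Receptor reads outnumbered ligand reads without delay, at 1.30 to 2.63 per Trf read, and were outnumbered at 1 week, at 0.329 to 0.546 per Trf read. The exact 2-sided permutation test of this ratio gave p = 0.0286 and p = 0.0715 after adjustment over the 5 single values, which fails the correction, with the ratio lower in 4 of 4 1-week libraries.

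The remaining uptake genes were low and higher at 1 week. Steap3, the endosomal reductase that turns ferric into ferrous iron, stood at 0.720, 1.83, 1.39 and 0.730 CPM without delay and at 3.14, 5.17, 4.71 and 4.40 CPM at 1 week. Slc11a1, a phagosomal transporter of divalent metals in macrophages, stood at 0.510, 0.270, 0.69 and 0.310 CPM without delay and at 3.14, 3.92, 1.93 and 1.63 CPM at 1 week. Both genes were separated between the groups, which for Slc11a1 the filter had fixed in advance. Reads were few: Slc11a1 had 18 reads in the no-delay group and 126 in the 1-week group, and Steap3 had 48 and 216. The log2 fold changes were 1.32 ± 0.20 for Steap3 (SE; limma adjusted p = 2.26e-04) and 1.30 ± 0.21 for Slc11a1 (SE; limma adjusted p = 4.37e-04).

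Iron export genes were higher too. Slc40a1, which encodes ferroportin, the cellular iron exporter, stood at 11.9, 12.6, 10.1 and 11.2 CPM without delay and at 23.8, 37.5, 27 and 28.1 CPM at 1 week. No-delay values were close together, and the 1-week library B was highest. The means were 11.4 CPM ± 1.08 and 29.1 CPM ± 5.88 (SD, n = 4 per group), a ratio of 2.54 and log2 fold change of 1.26 ± 0.13 (SE; 95% interval 0.98 to 1.54, limma adjusted p = 1.18e-05).

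Cp, which encodes ceruloplasmin, a copper ferroxidase that works with ferroportin, stood at 7.99, 4.94, 8.71 and 8.44 CPM without delay and at 13.05, 12.0, 8.86 and 14.6 CPM at 1 week. The 1-week library C was hardly above the highest no-delay library. The log2 fold change was 0.63 ± 0.18 (SE; 95% interval 0.24 to 1.02, limma adjusted p = 0.0154). Among the 10, this was the only call lost under an alternative that tested the gene. With quantile normalization it was lost (log2 fold change 0.34, limma adjusted p = 0.155), and over all 21 alternatives the adjusted p ranged from 0.00703 to 0.155. RefSeq places Hps3 across part of the Cp locus, and Hps3 was higher as well (log2 fold change 0.64, limma adjusted p = 3.54e-05); since the use of strand in counting is not stated, their reads may not be told apart. Heph, the related ferroxidase hephaestin, stood at 1.19 CPM ± 0.339 and 2.35 CPM ± 0.822 (SD, n = 4 per group; log2 fold change 0.60, limma adjusted p = 0.0287). Its call was lost without the no-delay libraries B or D or the 1-week libraries A or C (limma adjusted p from 0.0553 to 0.0884). It was also lost without both of the 1-week libraries A and D (adjusted p = 0.0840) and with quantile normalization (log2 fold change 0.21, adjusted p = 0.391).

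**Figure D2:**
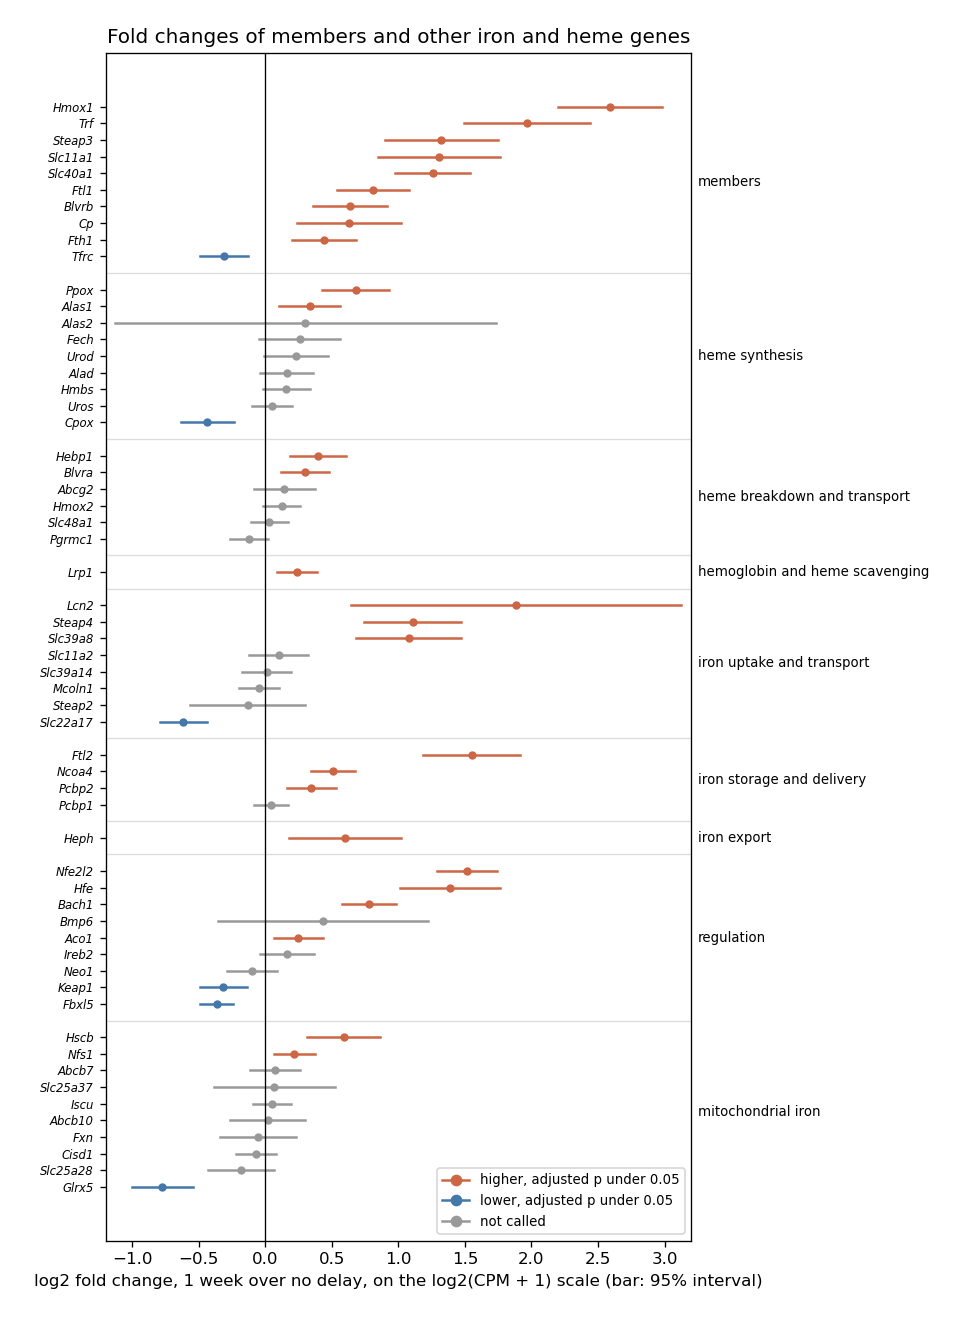
Log2 fold change of 1 week over no delay (horizontal axis, log2(CPM + 1) scale) with 95% intervals for the 10 members and 48 other tested iron and heme genes, grouped by role and coloured by the limma call. Of the members 9 lie to the right of 0 and Tfrc to the left, while 25 of the 48 other genes were not called.

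The wider iron and heme machinery, taken from lists of 64 genes, was less uniform. Of these, 53 were in the table and 48 were tested: 18 were higher, 5 were lower and 25 were not called, with a median log2 fold change of 0.16. Calls thus made up 23 of 48, beside 36.8% of all genes tested. Of 63 of them searched for the iron-responsive element, 1 (Alas2) has it within 250 bases of the transcript start.

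Regulators of the heme and iron response included some of the larger changes. Of 9 tested, 4 were higher and 2 were lower, where 23.4% of all tested genes were higher and 13.4% lower. Nfe2l2, the transcription factor NRF2 that activates oxidative stress genes such as Hmox1, stood at 13.9 CPM ± 1.46 and 41.8 CPM ± 5.002 (SD, n = 4 per group; log2 fold change 1.52 ± 0.10 SE, limma adjusted p = 4.66e-07). Bach1, the heme-sensing repressor of Hmox1, rose as well, from 12.7 to 22.5 CPM (log2 fold change 0.78, limma adjusted p = 4.01e-05). Hfe, a partner of the transferrin receptor that is mutated in hemochromatosis, rose from 2.07 to 6.89 CPM (log2 fold change 1.39, limma adjusted p = 5.64e-05). The lower pair, named after their values were seen, were Keap1, the adaptor that marks NRF2 for degradation (log2 fold change -0.32, limma adjusted p = 0.00930), and Fbxl5, which marks iron regulatory protein 2 for degradation when iron is plentiful (log2 fold change -0.37, limma adjusted p = 3.76e-04).

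Among other uptake and transport genes, 3 of 8 tested were higher and 1 was lower, where 23.4% of all tested genes were higher and 13.4% lower. Lcn2, the siderophore-binding lipocalin secreted by reactive glia and neutrophils, stood at 0.310, 3.11, 3.17 and 15.5 CPM without delay and at 23.2, 12.9, 8.93 and 19.6 CPM at 1 week, with overlapping groups. Its call (log2 fold change 1.88 ± 0.57 SE, limma adjusted p = 0.0210) was lost without the 1-week library A (adjusted p = 0.0624). It was also lost with edgeR (adjusted p = 0.0774) and DESeq2 (adjusted p = 0.245) on recovered reads; over all alternatives the adjusted p ranged from 5.42e-04 to 0.245. In the same no-delay library D that had the most Lcn2, the neutrophil markers in the table (4 of a list of 7, with Mpo, Elane and Cxcr2 not in it) summed to 13.1 CPM, against 0.610 CPM in the library with the least Lcn2. Of these 4 only 1 was tested and it was not called, their sums at 1 week were 1.18 to 5.07 CPM, and their part in the Lcn2 values was not tested. Slc39a8, a zinc and iron importer, rose from 1.49 to 4.33 CPM (log2 fold change 1.08). Steap4, a metalloreductase, rose from 0.190 to 1.54 CPM (log2 fold change 1.11). Steap4 was below 1 CPM in every no-delay library and passed the filter only through its 1-week values, so it could only be called higher. Slc22a17, the lipocalin-2 receptor, named after its values were seen, fell from 380 CPM ± 18 to 249 CPM ± 29.1 (SD, n = 4 per group; log2 fold change -0.62, limma adjusted p = 1.03e-04).

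Of 9 heme synthesis genes tested, 2 were higher, 1 was lower and 6 were not called. This is near the share over all tested genes, of which 36.8% were called. Ppox rose from 7.65 to 12.8 CPM (log2 fold change 0.68, limma adjusted p = 6.05e-04), while Cpox, which acts just before it, fell from 33.5 to 24.4 CPM (log2 fold change -0.44, limma adjusted p = 0.00268). Alas1, the first enzyme of the pathway in most tissues, stood at 40.7 and 51.2 CPM (log2 fold change 0.33, limma adjusted p = 0.0257) with overlapping groups. The Alas1 call was lost without the no-delay libraries B or C or the 1-week library B (adjusted p from 0.0549 to 0.0846). It was also lost with TMM scaling (adjusted p = 0.0624) and in 8 of 21 alternatives in all, with adjusted p from 0.00595 to 0.0846 over them.

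In mitochondria, Glrx5, which hands on iron-sulfur clusters, fell from 74.4 CPM ± 10.8 to 42.9 CPM ± 4.15 (SD, n = 4 per group; log2 fold change -0.77, limma adjusted p = 1.13e-04). Hscb, a co-chaperone of cluster assembly, rose from 7.84 to 12.3 CPM (log2 fold change 0.59, limma adjusted p = 0.00326; adjusted p = 0.0828 with quantile normalization). Nfs1, the cysteine desulfurase, was called higher (log2 fold change 0.22, limma adjusted p = 0.0300), but the call was lost in 10 of 21 alternatives. Among these were the omissions of the no-delay libraries A, B or C and of the 1-week libraries B or C (adjusted p from 0.0518 to 0.0967), and its adjusted p ranged from 0.0102 to 0.136 over all alternatives. Of 10 mitochondrial iron genes tested, 2 were higher, 1 was lower and 7 were not called, where 36.8% of all tested genes were called. The 2 of 6 genes of heme breakdown and transport called higher, already counted with Hmox1, were Blvra and Hebp1. Hebp1, a heme-binding protein, rose from 35.5 to 47.1 CPM.

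Of 4 scavengers of free hemoglobin and heme, 3 were low. Cd163, the hemoglobin scavenger receptor, stood at 0.510 to 0.890 CPM without delay and 0.520 to 1.71 CPM at 1 week, and Hp (haptoglobin) and Hpx (hemopexin) were below 1 CPM in every library. These 3 genes were not tested. Lrp1, the receptor for heme-hemopexin among many ligands, was called higher (284 to 336 CPM, log2 fold change 0.24, limma adjusted p = 0.0167). That call was lost without the 1-week library C (adjusted p = 0.0512) and with TMM scaling (adjusted p = 0.0595), over a range of 0.00504 to 0.0679 for all alternatives.

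The globin share of each library, a measure of red cell RNA, varied most within the 1-week group. The 4 globin rows (Hba-a1, Hba-a2, Hbb-b1 and Hbb-b2) took 0.154%, 0.110%, 0.0652% and 0.114% of CPM without delay and 0.530%, 0.0777%, 0.0344% and 0.241% at 1 week. The 1-week group thus held both the highest share (A) and the lowest (C). The means were 0.111% ± 0.0362 and 0.221% ± 0.224 (SD, n = 4 per group; exact 2-sided permutation p = 0.657, adjusted p = 0.657). Without the 1-week library A the mean log2 difference changed from 0.36 to -0.29. The Hba rows were at 0.140 to 13.5 CPM beside up to 4315 CPM for Hbb-b1. Since the Hba copies are near identical, reads could be split or lost between them, and the share rests on the Hbb rows.

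Alas2, Fech and Slc25a37, named after their values were seen, were highest at 1 week in the 2 libraries with most globin, A and D. Alas2, the erythroid form of the first enzyme of heme synthesis, stood at 25.1, 12.2, 7.13 and 22.2 CPM without delay and at 64.9, 9.31, 4.29 and 40.8 CPM at 1 week, and in each group it had the same order of libraries as the globin share. Fech, which inserts iron into heme, stood at 85.7, 83.3, 74.8 and 98.9 CPM without delay and at 125, 87.5, 80.2 and 124 CPM at 1 week, in the order of the globin share at 1 week but not without delay. Slc25a37, the mitochondrial iron importer mitoferrin 1, stood at 33.2, 28.0, 36.1 and 35.8 CPM without delay and at 53.1, 24.6, 25.5 and 43.6 CPM at 1 week; without delay it was highest in library C, which had the least globin of that group. None of the other 7 genes of heme synthesis had the full order at 1 week. Uros was highest in A and D, at 37.7 and 37.3 CPM, while Urod was lowest there, at 39.1 and 37.9 CPM, against 49.0 and 46.4 CPM in B and C. Alas2, Fech and Slc25a37 were not called (limma adjusted p = 0.751, 0.170 and 0.823 in this order). Without the 1-week libraries A and D, an alternative added after the data were seen, the log2 fold change of Slc25a37 went from 0.07 to -0.39 (limma adjusted p = 0.0266) and that of Alas2 from 0.30 to -1.11 (adjusted p = 0.0655). Fech was called without the 1-week library C (log2 fold change 0.37, adjusted p = 0.0486). As these genes were picked for being highest in A and D at 1 week, lower fold changes without A and D were fixed in advance. So was the rise of Fech without C, its lowest 1-week library. The 6 red cell markers in the table included no called gene, where 36.8% of all tested genes were called.

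None of the 10 members had the full order of the globin share at 1 week. Hmox1 was lowest (19.45 CPM) in the 1-week library with most globin, while Fth1 was highest there (4688 CPM). Cp came near that order, with its highest 1-week values in D (14.6 CPM) and A (13.05 CPM) and its lowest in C (8.86 CPM), the library with least globin. Trf and Steap3 were instead lowest in A and D. With the log2 globin share as a covariate all 10 members were still called, among them Slc11a1, whose direction the filter had fixed. The groups overlapped in globin share, so this fit could take away little of a group difference. The part of red cells in the member levels was not tested. Hmox1 then had a log2 fold change of 2.63 (limma adjusted p = 1.11e-06), Fth1 0.42 (adjusted p = 0.00987), Trf 1.98 (adjusted p = 5.15e-05) and Tfrc -0.33 (adjusted p = 0.00908). Without both 1-week libraries of highest globin share, Slc11a1 was no longer tested, Cp was lost (log2 fold change 0.43, adjusted p = 0.142), and the other 8 members were called.

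**Figure D3:**
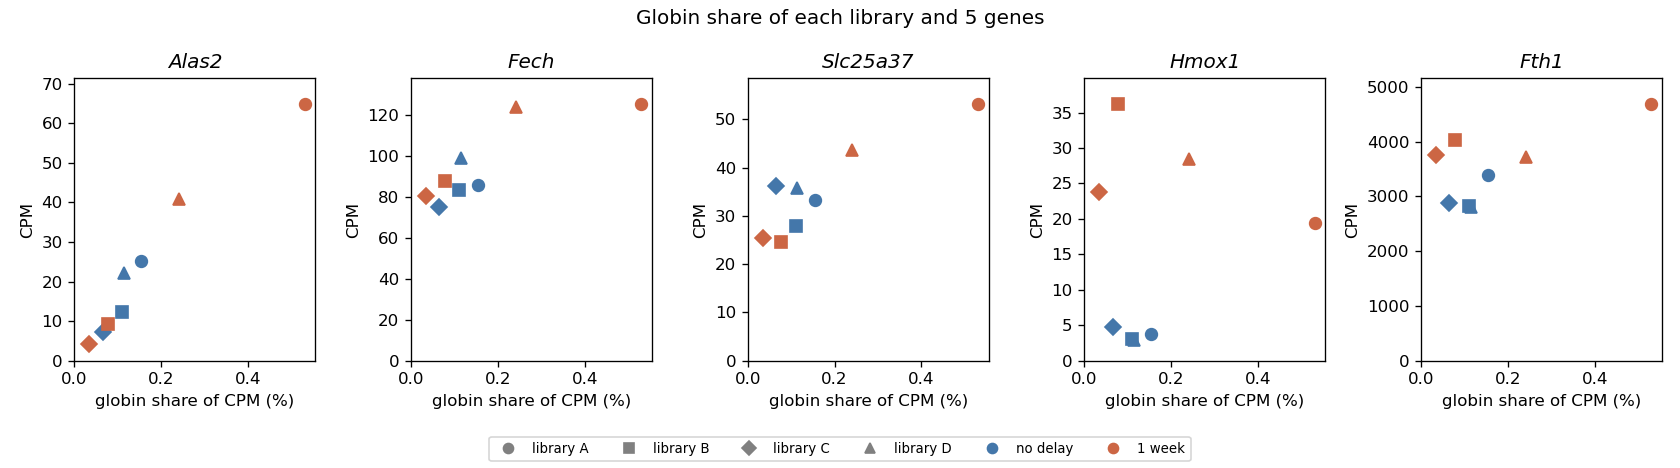
CPM of Alas2, Fech, Slc25a37, Hmox1 and Fth1 (vertical axes, linear) against the globin share of CPM in percent (horizontal axes) in each library, coloured by group with marker shapes for libraries A to D. Alas2 climbs with the globin share in both groups, up to 64.9 CPM at a share of 0.530%, while Hmox1 separates by group and is lowest among 1-week libraries at that share.

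Markers of several cell types moved with the group, where 23.4% of all tested genes were higher and 13.4% lower. Of 8 microglia markers 8 were higher, and their sum was 450 to 464 CPM without delay and 1454 to 2065 CPM at 1 week. Of 8 macrophage and monocyte markers 4 were tested and were higher, with sums of 10.04 to 13.6 CPM and 111 to 310 CPM, of which Lyz2 made up most at 1 week (98.4 to 280 CPM). Among these 4, Ms4a7 was below 1 CPM in every no-delay library. It passed the filter only through its 1-week values, so it could only be called higher. Hmox1 per 1000 CPM of the microglia sum was 6.29 to 10.5 without delay and 12.2 to 19.6 at 1 week. Slc40a1 per 1000 CPM of the same sum was instead lower at 1 week, at 14.9 to 19.3 after 22.3 to 28.0, with no overlap. Slc11a1 per 1000 CPM of that sum overlapped between the groups, at 0.600 to 1.53 and 1.12 to 1.97. Hmox1 per 1000 CPM of the macrophage and monocyte sum went the other way, at 214.1 to 413.4 without delay and 116.8 to 214.9 at 1 week, where only library C reached the no-delay range. These quotients were formed after the values were seen, and the part of these cells in the results was not tested.

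Oligodendrocyte markers were in part higher as well. Of 8 markers 5 were called higher, where 23.4% of all tested genes were higher. The sum of the 8 was 1533 to 3475 CPM without delay and 2411 to 4102 CPM at 1 week, with overlap. The no-delay library A, which had the highest Trf and Fth1 of its group, also had the highest sum there (3475 CPM, against 1533 to 2062 CPM in the others). Trf per 1000 CPM of the sum was 25.9, 22.2, 18.8 and 27 without delay and 44.3, 56.9, 64.1 and 69.8 at 1 week. On that quotient the no-delay library A lay within the range of the others of its group, and the groups did not overlap. This quotient was formed after the values were seen, and the part of oligodendrocytes in the Trf and Fth1 levels was not tested.

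**Figure D4:**
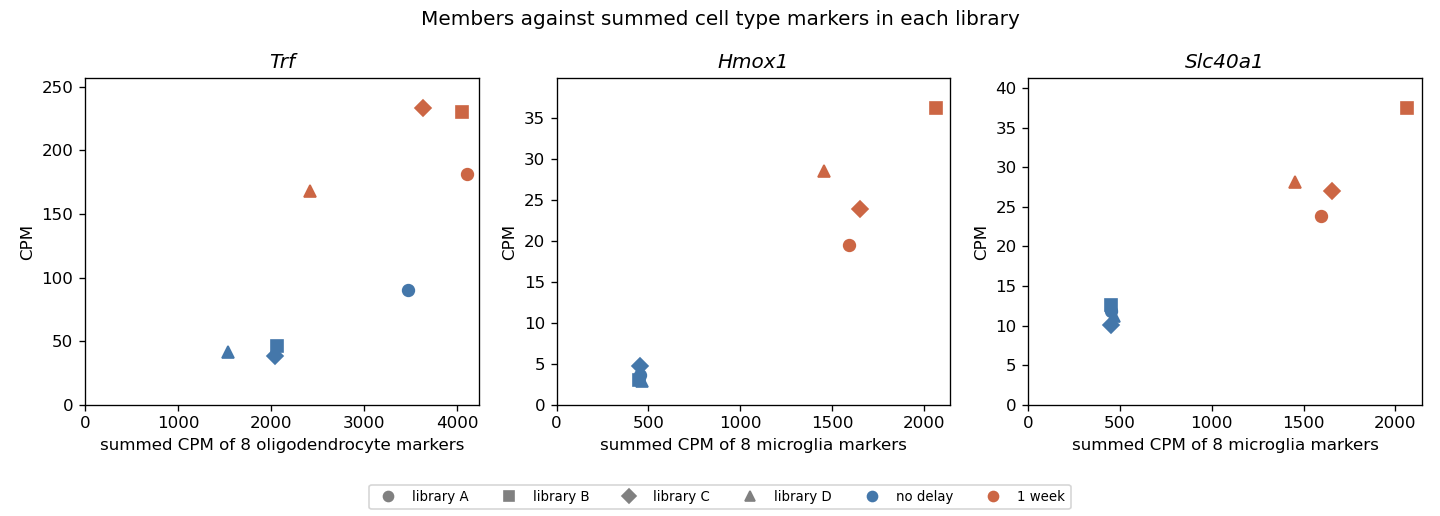
CPM of Trf against the summed CPM of 8 oligodendrocyte markers, and of Hmox1 and Slc40a1 against the summed CPM of 8 microglia markers, in each library (linear axes), coloured by group. The no-delay library A has an oligodendrocyte marker sum of 3475 CPM, within the 1-week range, and 90.05 CPM of Trf, below every 1-week library.

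Other markers bear on Tfrc and Cp. Their counts stand beside 23.4% of all tested genes called higher and 13.4% called lower. Endothelium, known for transferrin receptors at the blood-brain barrier, had 6 of 7 markers higher, with sums of 157 to 174 CPM without delay and 250 to 295 CPM at 1 week, while Tfrc was lower. Of 7 neuron markers 2 were lower, with sums of 5955 to 6745 CPM and 5438 to 5774 CPM. All 7 astrocyte markers were higher (2160 to 2467 CPM and 4386 to 5009 CPM), and 5 of 7 fibroblast and meninges markers were higher (23.4 to 39.3 CPM and 43.0 to 178 CPM). Choroid plexus, a known source of Cp, left little trace: its markers (3 of a list of 6 in the table) summed to at most 0.650 CPM at 1 week. The exception among no-delay libraries was Ttr at 104 CPM in library B, which had the lowest Cp (4.94 CPM). The part of these cells in Tfrc and Cp was not tested.

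For 3 members the genes that varied most like them between libraries of the same group were picked from 10927 genes, by Pearson correlation of deviations from the group means over 8 libraries. For Hmox1 these were Atp7a (0.98), Zfp287 (0.98) and Msh6 (0.96), for Trf Nipsnap1, Zdhhc20 and Snx29 (all 0.99), and for Slc40a1 Mecom, Dhx38 and Mfsd11 (0.96 to 0.97). With this many genes and few libraries such values describe these libraries only.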

How the data were processed

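The authors deposited CPM values per gene symbol for 8 CAGE libraries. Per the labels' protocols these were single-end reads of 75 nt, and the tools named, per the submitters' processing notes, include BWA 0.5.9 with the mm9 build. Strand use and multiple matches are not stated. Columns name the group and library index but no replicate number. Values are whole multiples of 1 read (at least 99.99% within 0.1 reads), so reads were recovered. In no-delay library C a read is worth 0.099 CPM, too near 0.1 for the check of whole steps to judge, so its read counts are less certain, and with them the edgeR and DESeq2 fits.

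The main test was limma 3.58.1 in R 4.3.3, with a mean-variance trend, on log2(CPM + 1) for 14718 genes at 1 CPM or more in at least 4 libraries, 2-sided, with Benjamini-Hochberg adjustment; 2926 genes were not tested. Single values used exact 2-sided permutation tests (70 arrangements, scipy 1.17.1). Alternatives were pseudocounts, filters, scalings, edgeR 4.0.16 and DESeq2 1.42.0 on recovered reads, a globin covariate, library weights and leaving out libraries. The scripts were tested on simulated data. The limit of 3 reads covers counting error only.

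Members and lists were chosen with earlier results of these data known. Named genes are the members and, per list, up to 3 called genes with the largest absolute log2 fold change. Exceptions are stated where they are named, and others include Uros, Urod, Cd163, Hp and Hpx. Oligodendrocyte, microglia and other marker lists hold 6 to 9 genes.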

Additional observations from a re-analysis of the deposited data

Results flagged for a closer look

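Among 126 groups of 4 values looked at (members, other tested iron and heme genes, and 5 single values per library), 4 held a library whose distance from the nearest other exceeded the 95% limit of Dixon's test, where chance flags about 1 in 20. Trf stood at 90.05 CPM in the no-delay library A, against 38.4 to 45.8 CPM in the others of its group. Fth1 stood at 3398 CPM in the same library, against 2803 to 2877 CPM. Uros, an enzyme of heme synthesis, stood at 37.7 CPM in the no-delay library D, against 34.4 to 35 CPM. Pgrmc1, a heme-binding membrane protein, stood at 208 CPM in the 1-week library D, against 238 to 243 CPM.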

How the results depend on the processing

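The count of members called was 8 to 10 over 21 alternatives and 10 in 14 of them; it fell where Slc11a1 or Steap3 was no longer tested (a filter of 5 CPM, omission of any 1-week library) or Cp was lost. The other 9 members kept their direction and call wherever they were tested. Other iron and heme genes called numbered 18 to 23, and all genes called 4006 to 6048 (5492 with edgeR and 5561 with DESeq2 on recovered reads). The share of calls that were higher was 63.6% as deposited, and 52.4%, 50.9% and 43.4% after TMM, median-of-ratios and quantile scaling, the last of which put the all-gene median at -0.04 in place of 0.06. Slc25a37 turned to -0.39 (limma adjusted p = 0.0266) without the 2 1-week libraries of highest globin share. It had been picked for being highest in these libraries, so a fall was fixed in advance, and the cause was not tested. Leaving out a library allows no exact permutation p below 0.0571, and there the 4 gene ratios kept their direction. The globin difference ran from -0.29 to 1.02. No paired analysis was possible because the columns carry no replicate numbers. A fit blocked on the index that both groups share, which no source ties to animals or batches, was not run. Reads of Slc11a1 and Steap3 were few.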
